A study of Mus musculus with 8 samples.

Results

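The genes of cholesterol and fatty acid synthesis were examined in ribosome-bound RNA of Müller cells, the principal glial cells of the retina. They were chosen by name as 36 genes, and all 36 were found by symbol among the 12339 genes of the deposited table. The study set 4 retina samples in which Nrf2 was knocked out conditionally in Müller cells (cKO) against 4 wild-type samples (WT), each group numbered 1, 3, 4 and 5. All 8 came from mice in oxygen-induced retinopathy at postnatal day 14. In this model, pups return from high oxygen to room air, and the inner retina is then short of oxygen. RiboTag adds a tag to Rpl22, a ribosomal protein, wherever Cre is active, and tagged ribosomes are then pulled down with their RNA. The Cre driver, the deleted exons, the strain, the sex and whether a sample was 1 animal are not given in the labels, so the p-values rest on a spread between samples that may be technical. Values are FPKM, fragments scaled to transcript length and library size, which allows levels of different genes to be compared.

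Cholesterol is built from acetyl-CoA through mevalonate and farnesyl pyrophosphate to squalene, which is closed into lanosterol and then trimmed to cholesterol. When membrane sterol is low, Scap escorts the SREBP transcription factors, encoded by Srebf1 and Srebf2, out of the endoplasmic reticulum, and they switch on the genes of this pathway, while the Insig proteins hold Scap back when sterol is plentiful. The SREBP forms of Srebf1 act mainly on fatty acid synthesis and those of Srebf2 mainly on cholesterol synthesis. The retina both makes cholesterol and takes it up from blood lipoproteins, and Müller cells are regarded as one of its sites of synthesis. Nrf2 itself is a transcription factor of antioxidant and detoxification genes.

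The promoter of Hmgcs1 is shown because it was the single member with a match to the core sterol regulatory element, and that of Insig1 because this sterol sensor followed the same pattern between libraries (chosen after its values were seen). Both are RefSeq windows on GRCm38.p6, plus strand, from 250 bases before the start site to 50 after it. Hmgcs1 lies at chr13:119690101-119690400 and Insig1 at chr5:28071162-28071461. Capitals mark TCACNCCAC, the sterol element, and CCAAT, the box bound by NF-Y, on either strand.
Hmgcs1: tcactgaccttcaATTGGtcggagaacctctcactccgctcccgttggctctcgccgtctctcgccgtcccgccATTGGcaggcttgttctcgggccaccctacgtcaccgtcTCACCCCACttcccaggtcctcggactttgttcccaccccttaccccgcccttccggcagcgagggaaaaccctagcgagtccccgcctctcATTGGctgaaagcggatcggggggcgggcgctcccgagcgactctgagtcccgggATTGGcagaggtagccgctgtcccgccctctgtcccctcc
Insig1: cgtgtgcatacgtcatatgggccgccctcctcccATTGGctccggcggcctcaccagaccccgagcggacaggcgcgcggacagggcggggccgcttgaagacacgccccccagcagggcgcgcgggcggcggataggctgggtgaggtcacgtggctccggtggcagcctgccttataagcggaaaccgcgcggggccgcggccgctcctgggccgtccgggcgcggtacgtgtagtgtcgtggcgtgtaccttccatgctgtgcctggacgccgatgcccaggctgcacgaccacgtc
The sterol element of Hmgcs1 reads TCACCCCAC on the plus strand, at −137 to −129 from the start site, and 4 CCAAT boxes lie around it on the minus strand. Insig1 held 1 CCAAT box, at −216 to −212. In all, 29 members had a window in the table, and Fdps, Fdft1, Sqle, Stard4, Scd1, Scd2 and Fads1 were not matched. Of these 29, 24 held CCAAT in at least 1 window (82.8%), where 41.1% of all 27025 genes with a window did. Those 27025 genes were not limited to the 12339 measured here, so the shares compare unlike sets. Per window the shares were 65.8% of 38 member windows and 37.4% of 32851 windows. The sterol element was in 3.45% of members and 1.44% of genes. Its E-box form, ATCANNTGA, was in 0 of 29 members and in 3.43% of genes. The core of the antioxidant response element through which Nrf2 acts, TGACNNNGC, was in 5 members (17.2%), namely Acss2, Dhcr7, Hsd17b7, Mvk and Pmvk, and in 13.99% of genes. These matches describe letters in the windows and do not show binding.

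Before the results, 3 facts of the libraries bear on them. Nfe2l2, the gene of Nrf2, had 12.7, 16.5, 14.8 and 10.4 FPKM in cKO 1, 3, 4 and 5, against 17.5, 18.8, 23.1 and 17.5 FPKM in WT 1, 3, 4 and 5. The groups did not overlap, with cKO lower, and the adjusted p in limma with Benjamini-Hochberg adjustment over all genes was 0.453, or 0.0219 with the replicate number as a block. The FPKM of Xist, expressed from the inactive X chromosome of females, was below 1 in cKO 4 and cKO 5 and between 25.01 and 72.1 in the other 6 libraries. The mean log2 value of 81 genes of unspliced or unverified transcripts was 2.22, 2.46, 1.86 and 1.64 in cKO 1, 3, 4 and 5, against 2.59, 2.76, 2.27 and 2.005 in WT 1, 3, 4 and 5. It was thus lower in cKO than in WT of the same number in each pair. In bulk samples such as these, fewer cells of a type and less RNA per cell cannot be told apart.

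Müller cell RNA was abundant, but RNA of other retinal cells was present too. Without the block 0 markers of any list passed, and with it the counts below stand beside the 10.6% of all genes that passed. The 12 Müller cell markers, all measured, summed to 10330.4 to 14610.2 FPKM in cKO and 9703 to 16484 FPKM in WT, and 2 of them, Aqp4 and Abca8a, fell with the block. Rod markers (10 of 10 measured) summed to 3524 to 5461 FPKM in cKO and 3371 to 5201 FPKM in WT, with 1 higher with the block. Bipolar cell markers (8 of 8) summed to 1936 to 2475 FPKM in cKO and 1585 to 1940.1 FPKM in WT, with 4 higher, and cone markers (7 of 8) to 101 to 117 FPKM in cKO and 90.8 to 121 FPKM in WT, with 1 higher and 4 lower. Amacrine and horizontal cell markers (6 of 8) summed to 26.8 to 40.8 FPKM in cKO and 38.9 to 60.6 FPKM in WT and ganglion cell markers (6 of 8) to 46.4 to 66.1 FPKM in cKO and 64.2 to 85.8 FPKM in WT, with 3 lower in each list. Astrocyte markers (4 of 6) summed to 272 to 401 FPKM in cKO and 134 to 273 FPKM in WT, with Gfap and S100b higher. Gfap alone averaged 218 FPKM in cKO and 91.7 FPKM in WT, and which cells its RNA came from was not tested. Vessel and pericyte markers (3 of 8) summed to 181 to 223 FPKM in cKO and 170.0 to 244 FPKM in WT. Of these, Rgs5 was higher with the block, by 0.76 on the log2 scale. Kdr and Pdgfrb were on average lower in cKO (−0.21 and −0.25) without passing. The pigment epithelium list (1 of 8, Ttr) summed to 2.55 to 5.40 FPKM in cKO and 1.81 to 5.58 FPKM in WT, with 0 past the threshold. None of the 8 microglia and macrophage markers was among the 12339 genes, all of which have a mean FPKM above 2. A measured marker could therefore not be at 0 in all libraries. The part of RNA from other cells in the results below was not tested.

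For none of the 36 genes did the difference between cKO and WT pass the test, and in each gene the 2 groups overlapped. In limma without the block, 0 of 36 members passed an adjusted p of 0.05, as did 0% of all 12339 genes. With the block, 0 of 36 members passed, while 10.6% of all genes did (1305 genes). At an unadjusted p under 0.05, 1 member was counted without the block (2.78% of members, against 10.6% of all genes) and 5 with it (13.9%, against 28.4%). The cKO and WT values overlapped in all 36 members, where 4.34% of all genes had no overlap. In all 4 pairs of equal number, 5 members differed in 1 direction (13.9%), where 36.2% of all genes did. The median difference over the members was 0.02 on the log2 scale, cKO minus WT, and 0.00 over all genes. It was −0.05 without cKO 3 and −0.04 without WT 1, so its direction rests on single libraries.

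The spread between libraries set how large a change could have been missed. The differences of the 36 members ranged from −0.29 for Srebf1 to 0.28 for Hsd17b7. The 95% interval of the difference, not adjusted for the number of genes, lay within 1.5-fold in either direction for 28 of 36 members without the block and for 35 with it, Hsd17b7 being the exception. It lay within 2-fold for all 36 in both fits. Differences inside these intervals were not resolved with 4 libraries a group.

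**Figure D1:**
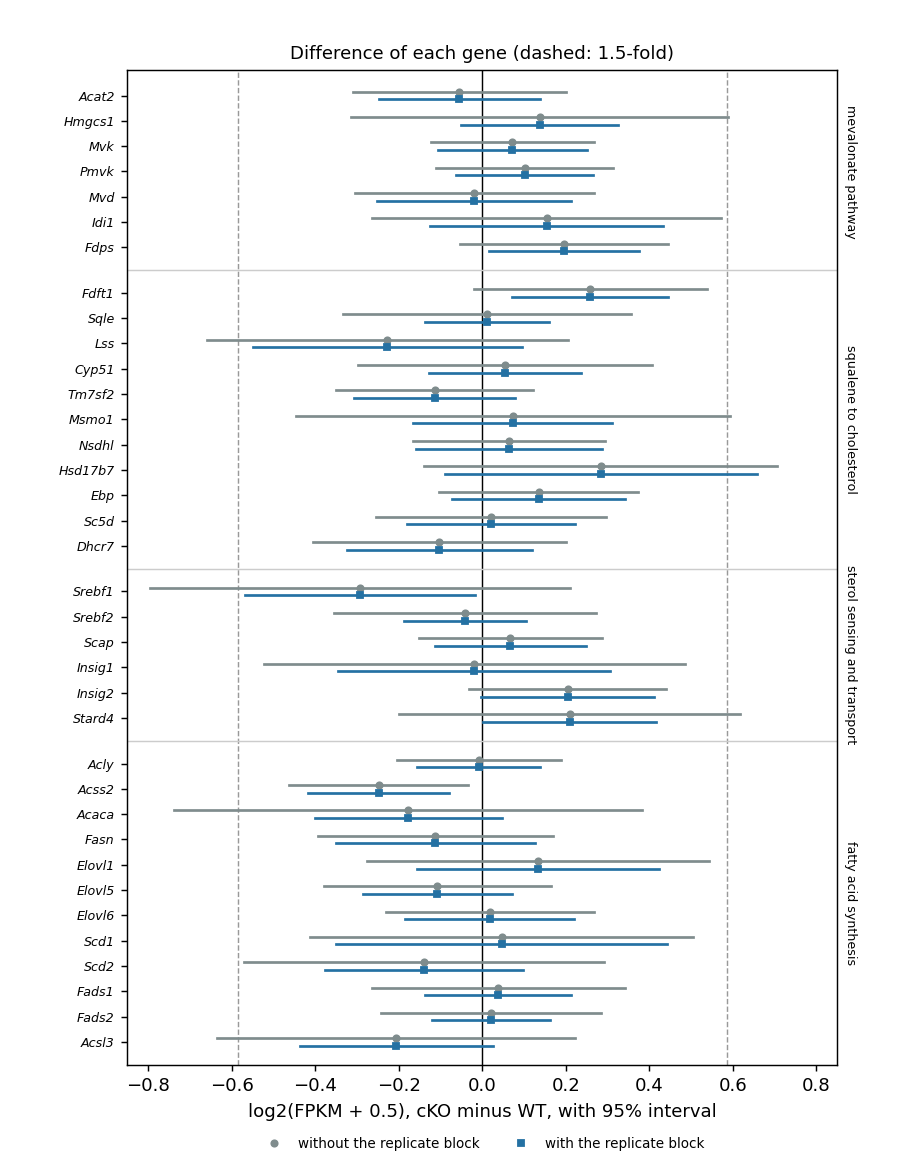
Difference of each of the 36 genes between cKO and WT in log2(FPKM + 0.5), as points with 95% intervals (n = 4 libraries each), without the replicate block (grey, circles) and with it (blue, squares); dashed lines mark 1.5-fold. The differences lie between −0.29 and 0.28, and 35 of the 36 blue intervals lie between the dashed lines.

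The levels of the members spanned more than 2 orders of size, and Acsl3 and Scd2 were the highest of them in all 8 libraries. Acsl3, which activates fatty acids for lipid droplets and membranes, was the highest with 453, 478, 670.0 and 472 FPKM in cKO 1, 3, 4 and 5, against 419, 599.6, 734 and 658 FPKM in WT 1, 3, 4 and 5. It was the 49th highest of all 12339 genes. Scd2, the stearoyl-CoA desaturase known as the main brain form, was next with 242, 355, 275 and 274 FPKM in cKO 1, 3, 4 and 5, against 209, 370.3, 337 and 366 FPKM in WT 1, 3, 4 and 5. The 8 values of Acsl3 lay above those of Scd2, and those of Scd2 above those of Fads2, the next gene. All other neighbours in the order overlapped in their values. The lowest was Scd1, the desaturase best known from liver and skin, with 1.91, 3.06, 1.96 and 1.90 FPKM in cKO 1, 3, 4 and 5, against 1.60, 2.29, 2.05 and 2.48 FPKM in WT 1, 3, 4 and 5. Within a library the FPKM of Scd2 was 116 to 145 times that of Scd1 in cKO and 131 to 164 times in WT. Between these ends, Fads2, Acly, Fasn and Hmgcs1 averaged 81.9, 65.98, 64.6 and 61.6 FPKM over the 8 libraries. Hsd17b7 and Idi1 averaged 2.96 and 4.95 FPKM.

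**Figure D2:**
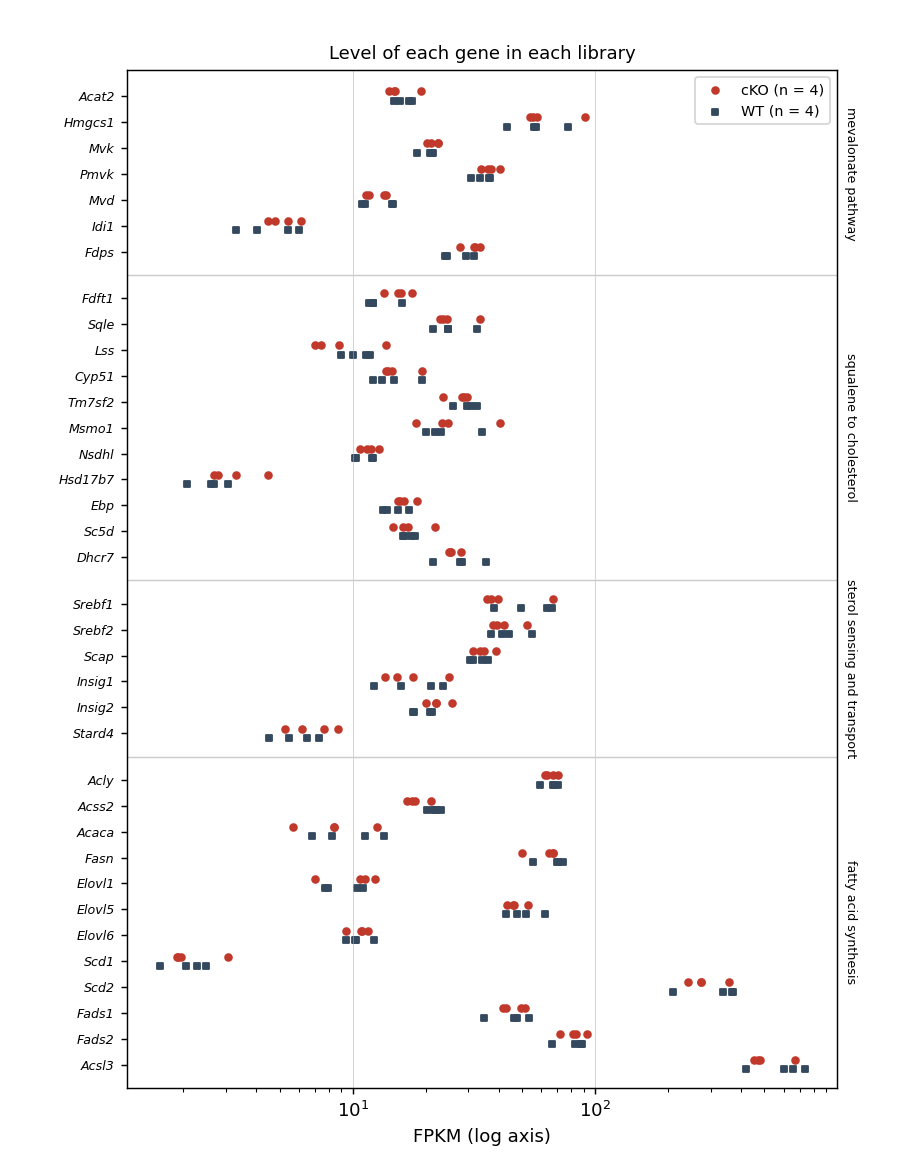
FPKM of each gene in each library on a log axis, with cKO as red circles above WT as dark squares (n = 4 each), grouped by role in the pathway. Acsl3 and Scd2 stand apart at the high end and Scd1 and Hsd17b7 lie lowest, and the cKO and WT points overlap in each row.

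The enzymes that lead from acetyl-CoA to farnesyl pyrophosphate differed by a median of 0.10, and 5 of the 7 were on average higher in cKO without passing the test. Hmgcs1, the HMG-CoA synthase that commits acetyl groups to the pathway (ENSMUSG00000093930; GRCm38 chromosome 13, 119690379 to 119708260, plus strand), had 55.7, 91.1, 57.8 and 53.9 FPKM in cKO 1, 3, 4 and 5, against 43.4, 77.7, 56.1 and 56.9 FPKM in WT 1, 3, 4 and 5. In both groups number 3 was the highest, and the difference of 0.14 ± 0.20 (SE, adjusted p = 0.795 in limma) was smaller than the range of either group. Fdps, the farnesyl pyrophosphate synthase, had 32.1, 33.7, 27.8 and 31.8 FPKM in cKO 1, 3, 4 and 5, against 24.2, 29.5, 24.5 and 31.6 FPKM in WT 1, 3, 4 and 5. Its cKO value was the higher in each pair, by 0.40, 0.19, 0.18 and 0.01 in pairs 1, 3, 4 and 5, yet the groups overlapped (difference 0.20 ± 0.11, adjusted p = 0.516, and 0.144 with the block, limma). Idi1, the isomerase of the isoprene units, had 4.48, 5.40, 4.78 and 6.12 FPKM in cKO 1, 3, 4 and 5, against 3.30, 6.04, 4.05 and 5.44 FPKM in WT 1, 3, 4 and 5. WT 1 was the lowest of the 8.

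The kinases Mvk and Pmvk, which phosphorylate mevalonate in turn, were among the steadiest members. Mvk had 22.5, 21.003, 20.2 and 22.5 FPKM in cKO 1, 3, 4 and 5, against 18.5, 20.8, 21.2 and 21.4 FPKM in WT 1, 3, 4 and 5. Pmvk had 37.4, 33.8, 36.3 and 40.6 FPKM in cKO 1, 3, 4 and 5, against 30.9, 33.5, 36.6 and 37.04 FPKM in WT 1, 3, 4 and 5. In both, WT 1 was the lowest library, and the differences of 0.07 ± 0.088 and 0.10 ± 0.095 (SE) did not pass. Mvd, which decarboxylates mevalonate pyrophosphate, averaged 12.6 ± 1.24 FPKM in cKO and 12.8 ± 2.05 FPKM in WT (SD, n = 4 each). Acat2, the thiolase of the first step, averaged 15.8 ± 2.30 FPKM in cKO and 16.3 ± 1.23 FPKM in WT. For Acat2, 39.1% of its stretches of 50 bases also occur in transcripts of its neighbour Acat3, so its reads may be split between them. Such shared stretches made up 26.2% in Fdps and 17.7% in Idi1, mostly with the gene models Gm43738 and Gm13502, and how the authors assigned such reads is not stated.

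From squalene to cholesterol the median difference was 0.05, with 8 of 11 enzymes on average higher in cKO and 0 past the threshold. Fdft1, the squalene synthase at the branch to sterols (ENSMUSG00000021273; GRCm38 chromosome 14, 63145150 to 63179578, minus strand), had 15.4, 17.7, 15.8 and 13.5 FPKM in cKO 1, 3, 4 and 5, against 12.1, 15.98, 11.7 and 12.1 FPKM in WT 1, 3, 4 and 5. The pairs differed by 0.33, 0.14, 0.42 and 0.15, each with cKO above WT, while WT 3 exceeded cKO 1, 4 and 5. Its difference was 0.26 ± 0.13 (SE) with a 95% interval of −0.02 to 0.54, or 0.07 to 0.44 with the block (adjusted p = 0.482 and 0.0819, limma). Of its stretches of 50 bases, 9.38% are shared with the gene model Gm6781. Sqle, the squalene epoxidase that is one of the slow steps of the pathway, had 22.9, 33.6, 24.4 and 23.6 FPKM in cKO 1, 3, 4 and 5, against 21.5, 32.7, 24.7 and 24.7 FPKM in WT 1, 3, 4 and 5. Here number 3 was high and the other numbers were close together in both groups, with a difference of 0.01 ± 0.16.

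Lss, which closes the squalene chain into lanosterol, had 7.38, 13.7, 6.98 and 8.83 FPKM in cKO 1, 3, 4 and 5, against 11.8, 11.4, 9.004 and 10.1 FPKM in WT 1, 3, 4 and 5. cKO 3 was the highest of the 8 and the other cKO libraries lay below each WT library, a pattern that left its pairs at −0.64, 0.26, −0.35 and −0.18. Hsd17b7, a reductase in the removal of sterol methyl groups, had 2.69, 4.48, 2.80 and 3.30 FPKM in cKO 1, 3, 4 and 5, against 3.05, 2.69, 2.08 and 2.60 FPKM in WT 1, 3, 4 and 5. Ebp, the sterol isomerase, had 16.2, 15.7, 18.4 and 15.4 FPKM in cKO 1, 3, 4 and 5, against 13.4, 13.8, 15.5 and 17.2 FPKM in WT 1, 3, 4 and 5. Neither passed, at 0.28 ± 0.19 and 0.13 ± 0.11 (SE). Cyp51, which demethylates lanosterol, averaged 15.4 ± 2.62 FPKM in cKO and 14.9 ± 3.15 FPKM in WT, and Msmo1, the methylsterol oxidase, 26.7 ± 9.54 FPKM in cKO and 24.9 ± 6.37 FPKM in WT (SD, n = 4 each). The remaining enzymes, the sterol reductase Tm7sf2, the dehydrogenase Nsdhl, the desaturase Sc5d and the reductase Dhcr7, differed by −0.11, 0.06, 0.02 and −0.10. Dhcr7 makes cholesterol from its last precursor, and WT 3, at 35.4 FPKM, was its highest library.

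Among the genes of sterol sensing and transport, 3 of 6 were on average higher and 3 lower in cKO, with a median of 0.02. Srebf2 (ENSMUSG00000022463; GRCm38 chromosome 15, 82147181 to 82205379, plus strand) had 39.4, 52.6, 42.2 and 37.9 FPKM in cKO 1, 3, 4 and 5, against 37.2, 54.9, 44.1 and 41.3 FPKM in WT 1, 3, 4 and 5. Number 3 was again the highest in each group, and the difference was −0.04 ± 0.14 (95% interval −0.36 to 0.27). Srebf1 (ENSMUSG00000020538; GRCm38 chromosome 11, 60199089 to 60222581, minus strand) had 35.7, 67.2, 39.9 and 37.3 FPKM in cKO 1, 3, 4 and 5, against 38.4, 66.7, 49.7 and 63.5 FPKM in WT 1, 3, 4 and 5. The cKO libraries 1 and 5 lay below each WT library and cKO 4 above WT 1 only, whereas cKO 3 was the highest of all 8. The pairs of Srebf1 differed by −0.10, 0.01, −0.32 and −0.76, so that most of its difference of −0.29 ± 0.23 came from pairs 4 and 5 (adjusted p = 0.618, and 0.153 with the block, limma). Those are the pairs whose cKO library had Xist below 1 FPKM. Over the 6 libraries with Xist above 1 FPKM the difference of Srebf1 was −0.12 ± 0.29 (SE). It was −0.50 without cKO 3 and −0.45 without WT 1. In the blocked fit it was −0.28 without pair 4 and −0.14 without pair 5.

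Insig1, the sensor whose own gene is switched on by SREBP, had 15.2, 24.9, 17.8 and 13.6 FPKM in cKO 1, 3, 4 and 5, against 12.3, 23.6, 15.8 and 21.1 FPKM in WT 1, 3, 4 and 5. Its values varied nearly 2-fold within each group, and cKO 5 was low where WT 5 was high. Insig2, the form that is less dependent on sterol, had 21.99, 20.1, 22.2 and 25.8 FPKM in cKO 1, 3, 4 and 5, against 20.9, 17.8, 21.2 and 17.98 FPKM in WT 1, 3, 4 and 5. Unlike most members it was lowest in number 3 in both groups, and each pair had cKO above WT, by 0.08, 0.17, 0.07 and 0.51 (difference 0.20 ± 0.11, adjusted p = 0.489, and 0.181 with the block, limma). Stard4, a soluble sterol carrier, had 6.19, 8.74, 5.28 and 7.65 FPKM in cKO 1, 3, 4 and 5, against 5.48, 7.25, 4.54 and 6.49 FPKM in WT 1, 3, 4 and 5. Its pairs differed by a similar amount each, 0.16, 0.25, 0.20 and 0.22, against a spread between numbers that made up 84.5% of its variance (adjusted p = 0.655, and 0.172 with the block, limma). Its difference of 0.21 ± 0.18 was 0.10 without cKO 3, 0.10 without WT 4 and 0.32 without cKO 4. Scap, the escort, had 33.6, 34.8, 31.3 and 39.003 FPKM in cKO 1, 3, 4 and 5, against 34.3, 36.2, 30.4 and 31.3 FPKM in WT 1, 3, 4 and 5, and differed by 0.07 ± 0.098.

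The fatty acid genes had a median difference of −0.06, with 7 of 12 on average lower in cKO. Acss2, which makes acetyl-CoA from acetate (ENSMUSG00000027605; GRCm38 chromosome 2, 155517948 to 155585724, plus strand), had 18.1, 21.03, 17.7 and 16.7 FPKM in cKO 1, 3, 4 and 5, against 20.4, 23.3, 21.7 and 22.2 FPKM in WT 1, 3, 4 and 5. Each pair had cKO below WT, with differences of −0.17, −0.14, −0.29 and −0.40, and cKO 3 was the only cKO library above any WT library, WT 1. Its difference of −0.25 ± 0.096 (SE) had a 95% interval of −0.46 to −0.03, the smallest unadjusted p of the 36 members (0.0272, limma) and an adjusted p of 0.460, or 0.0708 with the block. Exons of Acss2 overlap genes on the other strand, among them Gss, and the strand setting of the counting is not stated. Such overlap on the other strand was also found for Hmgcs1, Idi1, Fdft1, Lss, Cyp51, Srebf1, Scap, Elovl1 and Elovl6. Exons of Fdps, Tm7sf2, Srebf1, Scd2 and Acsl3 overlap other genes on the same strand.

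Fasn, the fatty acid synthase (ENSMUSG00000025153; GRCm38 chromosome 11, 120805846 to 120824547, minus strand), had 64.4, 66.9, 67.02 and 50.1 FPKM in cKO 1, 3, 4 and 5, against 55.3, 70.1, 73.6 and 69.4 FPKM in WT 1, 3, 4 and 5. cKO 5 was low among the cKO libraries and WT 1 among the WT libraries, and the difference was −0.11 ± 0.13. Elovl5, which lengthens polyunsaturated fatty acids, had 45.9, 46.5, 53.1 and 43.3 FPKM in cKO 1, 3, 4 and 5, against 42.9, 47.7, 62.2 and 52.1 FPKM in WT 1, 3, 4 and 5. WT 4 was its highest library, and the groups overlapped. Acly, which makes acetyl-CoA from citrate, averaged 65.8 ± 3.71 FPKM in cKO and 66.2 ± 4.70 FPKM in WT, and Acaca, which makes malonyl-CoA, 8.78 ± 2.88 FPKM in cKO and 9.96 ± 3.03 FPKM in WT (SD, n = 4 each). The steadiest member was Acly, whose highest value was 1.19 times its lowest, and the most variable was Acaca, at 2.37 times. Of the stretches of 50 bases of Acaca, 30.4% occur in other transcripts, mainly of Gm5182. The desaturases Fads1 and Fads2 of polyunsaturated fatty acids differed by 0.04 and 0.02. Acsl3, Scd2, Scd1 and the fatty acid elongases Elovl1 and Elovl6 differed by −0.21, −0.14, 0.05, 0.13 and 0.02, with 0 past the threshold.

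**Figure D3:**
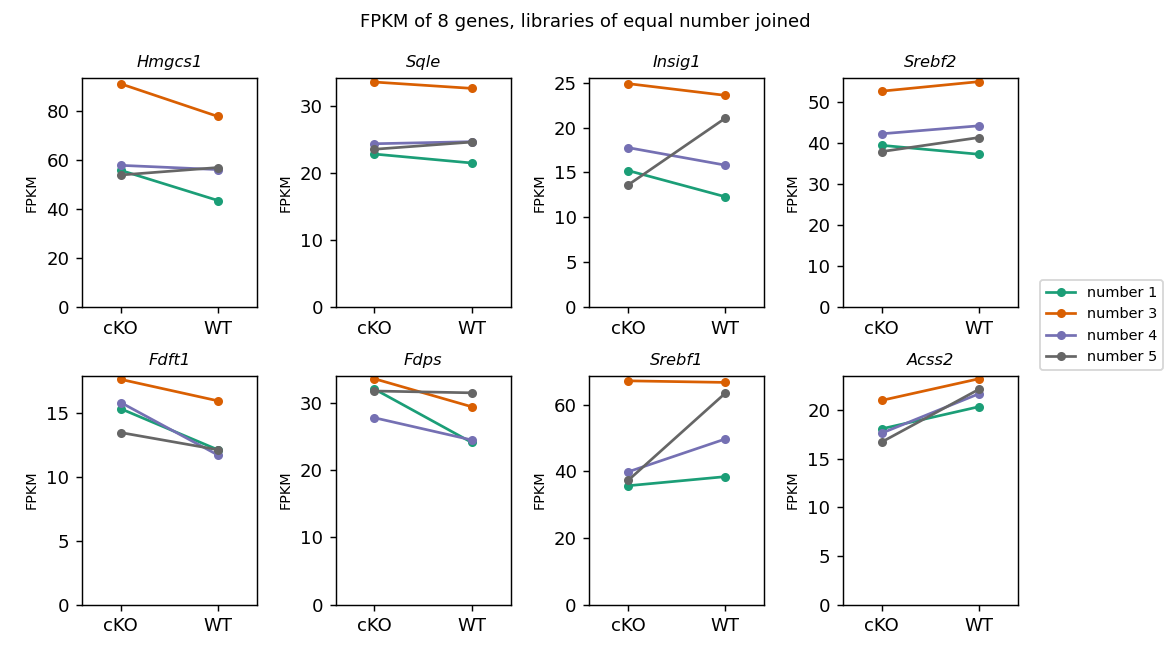
FPKM of 8 genes in each library, cKO left and WT right, with libraries of equal number joined by a line; axes start at 0. Number 3 (orange) is the highest in both groups for Hmgcs1, Sqle, Insig1, Srebf2, Fdft1, Srebf1 and Acss2, and all 4 lines slope down towards WT for Fdft1 and up for Acss2.

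Between libraries of the same genotype the members did move. The values of a member were expressed as log2 deviations from its mean over the 8 libraries, and the median over the 36 members was −0.10, 0.18, −0.03 and −0.10 in cKO 1, 3, 4 and 5, against −0.20, 0.18, −0.04 and 0.05 in WT 1, 3, 4 and 5. Number 3 was thus high in both groups and number 1 low in both. Over all genes the same medians lay between −0.01 and 0.01. The libraries were already level, with median-of-ratios scaling factors between 0.997 (WT 1) and 1.009 (cKO 5). Medians near 0 over all genes follow from this and do not gauge how unusual the members are. The genes of sterol sensing and transport were at 0.36 in cKO 3 and 0.26 in WT 3. The 11 enzymes from squalene to cholesterol were at 0.35 in cKO 3 and 0.19 in WT 3, and the fatty acid genes at 0.15 and 0.13. The mevalonate pathway did not show this in WT, with 0.12 in cKO 3 and 0.01 in WT 3, below the 0.10 of WT 5. These patterns were chosen after the values were seen and were not tested.

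**Figure D4:**
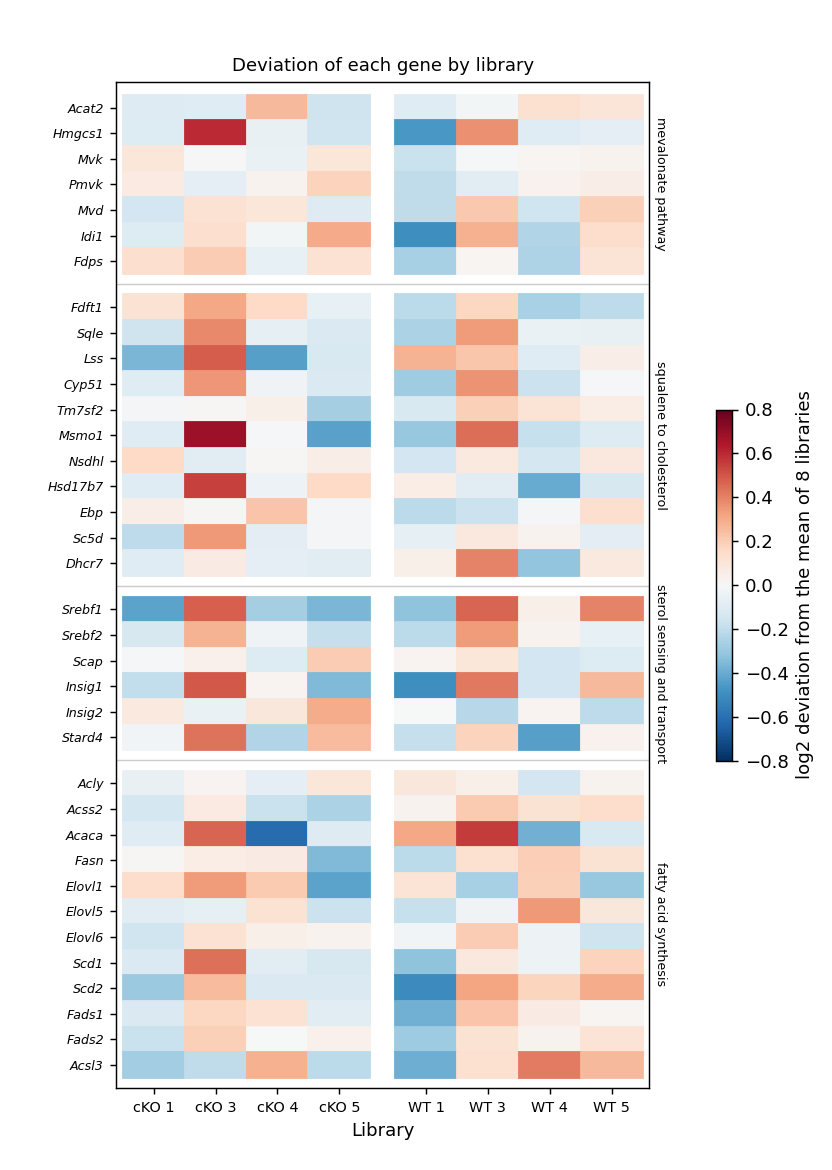
Log2 deviation of each gene from its mean over the 8 libraries (colour, red above and blue below), with cKO libraries left and WT libraries right. The columns of cKO 3 and WT 3 are mostly red, and that of WT 1 is mostly blue.

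In 18 of the 36 members (50%) number 3 was the highest library in both cKO and WT, where 17.6% of all genes had that pattern. The count was 2 (9.09%) in the 22 further sterol and fatty acid synthesis genes measured and 6 (35.3%) in the 17 further genes of SREBP and sterol control. Of those 22, 5 were lowest in number 3 in both groups and 5 highest in number 5. The 18 members were Hmgcs1 and Mvd of the mevalonate pathway, Fdft1, Sqle, Cyp51, Msmo1, Sc5d and Dhcr7 of the sterol steps, Srebf1, Srebf2, Insig1 and Stard4, and the fatty acid genes Acss2, Acaca, Elovl6, Scd2, Fads1 and Fads2. Number 4 was the highest in both groups for Acat2, Fasn, Elovl5 and Acsl3 (11.1% of members, 14.4% of all genes), number 5 for Pmvk, and number 1 for 0 of 36. Number 1 was the lowest in both groups for 8 members (22.2%, against 6.66% of all genes), namely Mvd, Idi1, Sqle, Srebf1, Scd2, Fads1, Fads2 and Acsl3. The replicate number accounted for a median of 68.7% of a member's variance over the 8 libraries and the genotype for 8.11%, where the medians over all genes were 60.2% and 14.3%. The number has more levels than the genotype and so takes a larger share even of random spread. The 2 shares are therefore to be read beside those of all genes and not against each other. The share of the number was highest in Sqle (98.3%), Srebf2 (95.1%), Fads2 (93.3%) and Cyp51 (91.9%).

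**Figure D5:**
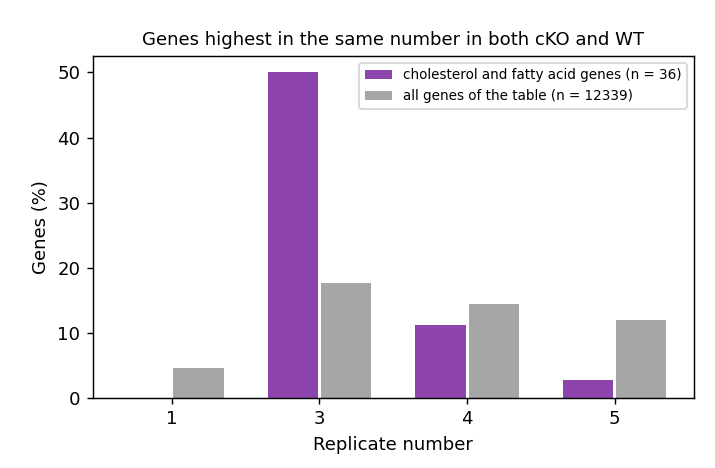
Share of genes, in percent, whose highest library carries the same replicate number in cKO and in WT, for the 36 genes of cholesterol and fatty acid synthesis (purple) and all 12339 genes (grey). The purple bar of number 3 stands at 50% and the grey one at 17.6%.

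Other measures of the libraries moved with the numbers too. The unspliced transcripts given above were highest in number 3 and next highest in number 1 in both groups, while the members were high in number 3 and low in number 1. Rod markers summed to 3524 FPKM in cKO 3 and 4029 FPKM in WT 3, the lowest and the second lowest of their groups. Müller cell markers were highest in number 4, with 14610.2 FPKM in cKO 4 and 16484 FPKM in WT 4, as were Acat2, Fasn, Elovl5 and Acsl3. Whether any of these accounts for the pattern was not tested, and what the numbers stand for is not given in the labels.

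Among further genes of the pathway, 2 of 39 measured passed with the block, Abca1 and Fads3, where 10.6% of all genes did. Of 26 further synthesis genes, 22 were measured, and with the block 1 was higher, 0 were lower and 21 did not pass. Of 22 further genes of SREBP and sterol control, 17 were measured, of which 0 were higher, 1 was lower and 16 did not pass. Without the block 0 of these 39 passed.

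Abca1, which exports cholesterol to apolipoproteins, had 8.82, 15.5, 8.40 and 10.9 FPKM in cKO 1, 3, 4 and 5, against 12.4, 17.5, 15.3 and 17.6 FPKM in WT 1, 3, 4 and 5. It fell with the block by 0.54 on the log2 scale (adjusted p = 0.0254, limma, and 0.453 without the block), although cKO 3 lay above WT 1 and WT 4. Without pair 1, 4 or 5 it did not pass (adjusted p = 0.0867, 0.0870 and 0.0769), and without pair 3 it did (0.0182). Fads3, a relative of the desaturases, had 13.3, 20.9, 17.8 and 12.1 FPKM in cKO 1, 3, 4 and 5, against 9.05, 12.8, 14.9 and 11.02 FPKM in WT 1, 3, 4 and 5. It rose with the block by 0.40 (adjusted p = 0.0498, limma, and 0.482 without the block). Without pair 1, 3 or 4 it did not pass (adjusted p = 0.176, 0.161 and 0.0940), nor with median-of-ratios scaling (0.0519). Fads3 did pass with the block without pair 5 (0.0462) and with quantile normalization (0.0449). With the level of unspliced transcripts as a covariate and no block, Abca1 was at −0.46 ± 0.22 (SE, adjusted p = 0.835, limma). The same covariate together with the block could not be read, since its level, cKO minus WT, lay between −0.41 and −0.29 in all 4 pairs and so nearly coincided with the genotype.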

How the data were processed

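RNA bound to Müller cell ribosomes was sequenced from 4 cKO and 4 WT retina samples, with directional poly(A) libraries per the labels' protocols. The authors deposited 1 table of FPKM for 12339 genes, the unit being that of its name, with a mean above 2 for each gene. STAR, edgeR, GRCm38 and mm10 are listed in the submitters' processing notes without a role. The counter, annotation, strand setting and gene filter are not given in the sources used here. FPKM summed to 410581 to 448129.5 per library. The number of fragments is unknown, so no counting interval was computed.

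Differences are cKO minus WT in log2(FPKM + 0.5), fitted over the whole table with limma 3.58.1 in R 4.3.3 (eBayes with trend, two-sided) and adjusted over 12339 genes by Benjamini-Hochberg at 0.05. The script was tested on simulated data. The replicate numbers occur in both groups. Deviations from group means correlated across genes at 0.261 to 0.591 for equal and −0.479 to 0.211 for unequal numbers, so by the rule (above 0.1 in each pair) the numbers paired the samples, and a fit with the number as a block stands beside the first. Variance shares are sums of squares of group and number, not adjusted for the greater number of levels of the latter.

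The members, the lists and the tests were chosen with earlier results of these data known. Values by library are given for Hmgcs1, Sqle, Srebf1, Srebf2, Insig1, Scd1, Scd2 and Fasn and for the 4 members of each role group with the smallest p. Of the other pathway genes, those past the threshold are named; some that the rule also covers are not reported here. Gene positions are those of GENCODE mouse release 21 (GRCm38, 12327 of 12339 IDs found). Motifs were searched in RefSeq promoter windows, and stretches of 50 bases shared between genes in GENCODE transcripts. Protein comparisons that had been planned are not reported here. Alternatives were other pseudocounts, filters, scalings, weights, a threshold of 0.1, an unspliced RNA covariate, the libraries with Xist above 1 FPKM, and leaving out each library or pair.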

Additional observations from a re-analysis of the deposited data

Results flagged for a closer look

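In 10 of 72 groups of 4 libraries (36 members, 2 genotypes), the highest or lowest library stood apart from the other 3 by more of the group's range than Dixon's 95% critical value allows. Chance flags about 1 in 20 groups, or 3.6 of 72, and members that vary together are not independent. Of the 10, 6 were high values of cKO 3. Hmgcs1 was at 91.1 FPKM there, with the next cKO library at 57.8. Sqle was at 33.6 FPKM (next 24.4), Cyp51 at 19.3 (next 14.6) and Dhcr7 at 28.03 (next 25.4). Srebf1 was at 67.2 FPKM (next 39.9) and Scd1 at 3.06 (next 1.96). In WT 3, Fdft1 was at 15.98 FPKM, with the next WT library at 12.1. In cKO 4, Acat2 was at 19.2 FPKM (next 14.9) and Acsl3 at 669.99 (next 478). Fasn was low in cKO 5, at 50.1 FPKM, with the next cKO library at 64.4. The cause of these values was not tested.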

How the results depend on the processing

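Under each of the 28 other settings run, 0 of 36 members passed, and the smallest adjusted p of a member in any of them was 0.0674 (Fdft1, replicate block with quantile normalization, limma). In each setting without the block at most 1 gene of the whole table passed, so a count of 0 members says little there. With the block and no covariate, 402 (without pair 1) to 1305 (all libraries) of 12339 genes passed. The threshold of 0.1 was tried without the block only. With the block, the adjusted p of Acss2 and Fdft1 was 0.0708 and 0.0819 (limma), under 0.1 but not under 0.05. With the replicate block the count was 0 and the median difference 0.02, and the block changed no call of a member. The median difference over the members moved in each setting by less than 0.147, the SD between libraries of a group of the members' median deviation. That SD is far larger than the median difference of 0.02 itself, so staying within it does not show a stable median. The sign of the median changed in some settings, as follows. Leaving out 1 library gave −0.05 (without cKO 3) to 0.08 (without WT 3), TPM scaling −0.01, library weights −0.03 and the unspliced RNA covariate 0.08. The 6 libraries with Xist above 1 FPKM gave 0.06. Leaving out 1 pair in the block gave −0.01 to 0.06. TPM scaling moved the median over all genes to −0.03 and quantile normalization to 0.03. The difference of 20 members changed sign without passing in at least 1 of the other 27 settings. The fit with both the block and the unspliced covariate is not counted there: the covariate nearly coincided with the genotype within pairs, and 0 of 12339 genes passed (limma; 601 at an unadjusted p under 0.05). A minimum mean FPKM of 5 removed 3 members and 1 of 2 removed 0. The settings that joined the block with a scaling or the covariate were chosen after the data were seen. The number of fragments is unknown, so counting error at low levels, as for Scd1 and Hsd17b7, could not be set apart.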

Other observations

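Genes of lipid handling outside the members, named after their values were seen, gave these values. Cyp46a1, which turns cholesterol into the form that leaves neurons, had 6.37, 7.65, 5.79 and 5.53 FPKM in cKO 1, 3, 4 and 5, against 8.80, 10.1, 6.92 and 6.45 FPKM in WT 1, 3, 4 and 5. Its difference was −0.31 ± 0.16 (SE, adjusted p = 0.489 and 0.0694 with the replicate block, limma), and number 3 was its highest library in both groups. Elovl2, which lengthens polyunsaturated fatty acids towards docosahexaenoic acid, had 15.9, 9.66, 10.3 and 18.3 FPKM in cKO 1, 3, 4 and 5, against 16.3, 13.1, 7.28 and 16.8 FPKM in WT 1, 3, 4 and 5. Number 5 was its highest library in both groups, as in 5 of the 22 further synthesis genes (22.7%), and its difference was 0.03 ± 0.28.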
